A study of Mus musculus with 24 samples.

Results

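A set of 10 genes of striatal opioid and tachykinin signalling was followed, listed by their symbols. They are the peptide precursors Penk, Pdyn, Pnoc and Tac1, the opioid receptors Oprd1, Oprk1, Oprm1 and Oprl1, and the tachykinin receptors Tacr1 and Tacr3. All 10 were found among the 24340 genes that the 6 tables share, and all 10 passed the filter on low values in every comparison. RNA came from the striatum of R6/1 mice and their wild type (WT) littermates. R6/1 is a transgenic model of Huntington's disease on a C57BL/6J background that carries exon 1 of the human huntingtin gene with an expanded CAG repeat, and the males used were hemizygous. Mice of both genotypes received either RGFP109, a selective inhibitor of the histone deacetylases HDAC1 and HDAC3, or the solvent alone. RGFP109 was given by intraperitoneal injection at 30 mg/kg on 5 days a week for 3 weeks, 23 days in all. Treatment began at an age of 11–14 weeks and ended at 14–17 weeks, 18 h after the last injection. The WT-vehicle group held 5 libraries, R6/1-vehicle 6, WT-RGFP109 6 and R6/1-RGFP109 7, 24 in total, each from the striatum of 1 hemisphere. The transgene is human, so these mouse gene tables hold no value that checks the genotype.

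The deposited tables give 1 FPKM per gene and group, a value over the libraries of that group that is scaled by transcript length and library size, so that levels of different genes can be set side by side. There is no value per library in them. No spread between mice, depth, interval or test therefore stands behind any number here, and every ratio describes these pooled values. A gene is called lower or higher, or is said to have fallen or risen, where its log2 ratio between 2 groups is beyond 0.5, a ratio of 1.41. The tables were scaled separately, and the value of 1 group differed between its 3 tables by a factor of 1.00 to 1.04.

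The projection neurons of the striatum divide into the indirect pathway, whose neurons carry the dopamine D2 receptor and make enkephalin from Penk, and the direct pathway, whose neurons carry the D1 receptor and make dynorphin from Pdyn and substance P from Tac1. Enkephalins act mainly on the delta and mu opioid receptors (Oprd1, Oprm1), dynorphins on the kappa receptor (Oprk1) and nociceptin, cut from the Pnoc product, on its own receptor (Oprl1), all of which couple to inhibitory G proteins. Substance P acts on the neurokinin-1 receptor (Tacr1) and neurokinin B on the neurokinin-3 receptor (Tacr3), which couple to Gq. Reduced enkephalin in the striatum is a long-known feature of Huntington's disease.

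The coding sequences of Penk, Pnoc and Tac1 show the peptide cores they encode. In the GENCODE vM21 transcripts (GRCm38, the build also called mm10), the Penk coding sequence of 268 codons holds 7 copies of the opioid core, the codons for tyrosine, glycine, glycine and phenylalanine. Pnoc (212 codons) has 1 copy of the nociceptin core, which starts with phenylalanine in place of tyrosine, and Tac1 (130 codons) has 2 copies of the tachykinin tail. The stretches below run 5′ to 3′ on the coding strand, with these codons in capitals. They lie at chr4:4133845-4134093 (minus strand, Penk, 4 of the 7 copies), chr14:65404875-65404898 (minus strand, Pnoc) and chr6:7556744-7559136 (plus strand, Tac1, with the introns left out).
Penk: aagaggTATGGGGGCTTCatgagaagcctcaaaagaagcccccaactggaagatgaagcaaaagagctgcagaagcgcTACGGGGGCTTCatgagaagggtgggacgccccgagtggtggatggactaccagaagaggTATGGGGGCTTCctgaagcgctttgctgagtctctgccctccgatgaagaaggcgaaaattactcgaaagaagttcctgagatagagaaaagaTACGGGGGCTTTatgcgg
Pnoc: aaaaggTTTGGGGGCTTCaccggg
Tac1: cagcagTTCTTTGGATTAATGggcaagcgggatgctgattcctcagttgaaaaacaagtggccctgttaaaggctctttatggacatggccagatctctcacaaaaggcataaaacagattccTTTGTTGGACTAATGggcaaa

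In WT-vehicle striatum the precursors covered a wide range. Penk was at 1114 FPKM, Tac1 at 214 FPKM, Pdyn at 56.1 FPKM and Pnoc at 3.26 FPKM. Penk was thus among the most abundant transcripts, at rank 16 of the 16636 genes above 0.1 FPKM, with Tac1 at rank 295. The receptors were far lower. Oprl1 led them at 19.8 FPKM, followed by Tacr1 at 7.44, Oprk1 at 6.88, Oprd1 at 5.68, Tacr3 at 1.94 and Oprm1 at 1.07 FPKM. Penk stood at 196 times the level of Oprd1, Pdyn at 8.15 times that of Oprk1 and Tac1 at 28.8 times that of Tacr1. Without a spread between mice it cannot be said which neighbours in this order differ.

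**Figure D1:**
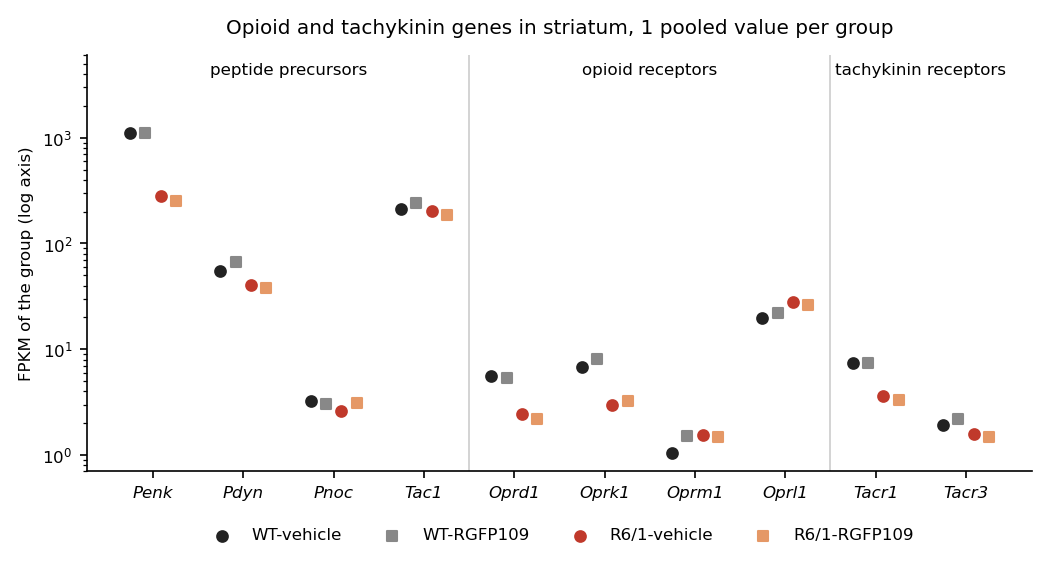
FPKM (log axis) of the 10 genes in the 4 groups, as the geometric mean over the 3 tables that hold each group; circles are vehicle and squares RGFP109, and no error bars exist because each group has 1 pooled value. Penk, Oprd1, Oprk1 and Tacr1 lie lower in both R6/1 groups than in both WT groups, whereas Tac1 and Pnoc lie close together in all 4.

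The first question was how the genotype bears on these genes without treatment. Between R6/1-vehicle and WT-vehicle, 4 of the 10 genes were lower (Penk, Oprk1, Oprd1 and Tacr1) and 0 were higher. Taking the mean of each group's 3 tables, 2 were higher (Oprm1, 0.52, and Oprl1, 0.52), and with no pseudocount 1 was (Oprm1, 0.51). Over all 16972 genes compared, 13.4% were lower and 5.84% higher by the same measure. The median log2 ratio was -0.41 for the 10 genes and -0.02 for all genes. Of the 10 ratios 8 were below 0, beside 52.5% of those of all genes.

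Among the precursors only Penk passed the fold. It fell by 75.2%, from 1114 FPKM in WT-vehicle to 276 FPKM in R6/1-vehicle (log2 ratio -2.01). This was the 159th lowest ratio of the 16972 genes, and moved Penk from rank 16 to rank 150 by level. Pdyn, the dynorphin precursor, was at 56.1 and 40.4 FPKM (-0.47), just inside the fold. Pnoc, the nociceptin precursor, was at 3.26 and 2.57 FPKM (-0.34). Tac1, the precursor of substance P and neurokinin A, was at 214 and 199 FPKM (-0.11). The ratio of the indirect pathway's precursor was thus the largest of the 4 precursors in size, and that of Tac1, a direct pathway precursor, the smallest. In bulk tissue, fewer cells of a type and less RNA per cell cannot be told apart.

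The receptors did not move as a block. The delta receptor Oprd1 fell from 5.68 to 2.43 FPKM (log2 ratio -1.21) and the kappa receptor Oprk1 from 6.88 to 2.91 FPKM (-1.23), so that the ratio of Oprk1 to Oprd1 was 1.21 in WT-vehicle and 1.20 in R6/1-vehicle. The neurokinin-1 receptor Tacr1, known in striatum from cholinergic and somatostatin interneurons, fell from 7.44 to 3.60 FPKM (-1.04). The other three receptors stayed within the fold. Tacr3 was at 1.94 and 1.58 FPKM (-0.29). The nociceptin receptor Oprl1, at 19.8 and 27.7 FPKM (0.48), and the mu receptor Oprm1, at 1.07 and 1.52 FPKM (0.49), had ratios of the opposite sign, both just inside the fold.

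Oprm1 has a limit of its own. It lies at chr10:6758593-7038209 on the plus strand, and its exons overlap those of Ipcef1 on the minus strand. The tables give both genes the same locus, and Ipcef1 had 9.16 times the FPKM of Oprm1 in WT-vehicle. Whether the counting used strand is not stated in the sources used here, and without strand the reads of both genes cannot be told apart in the overlap. Ipcef1 was at 9.76 FPKM in WT-vehicle and 7.21 in R6/1-vehicle (log2 ratio -0.43), a ratio of the opposite sign to that of Oprm1. Penk, at chr4:4133536-4138445 on the minus strand, likewise shares exonic bases with the antisense transcript A830012C17Rik. The other 8 genes overlap no annotated exon of another gene. On the plus strand lie Tac1 (chr6:7555071-7562973), Oprk1 (chr1:5588493-5606133), Oprl1 (chr2:181715016-181720985), Tacr1 (chr6:82402475-82560104) and Tacr3 (chr3:134829007-134934581), and on the minus strand Pdyn (chr2:129686549-129699938), Pnoc (chr14:65400673-65425472) and Oprd1 (chr4:132110726-132144486), all protein-coding and on mm10.

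The RGFP109-treated mice give the same genotype comparison in different animals, since WT-RGFP109 and R6/1-RGFP109 share no library with the vehicle pair. Here 6 of the 10 genes were lower in R6/1 (Penk, Oprk1, Oprd1, Tacr1, Pdyn and Tacr3) and 0 higher, against 11.7% lower and 5.39% higher of 16954 genes. The median log2 ratio was -0.71 for the 10 genes and 0.00 for all genes.

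Penk fell from 1116 FPKM in WT-RGFP109 to 247 FPKM in R6/1-RGFP109 (log2 ratio -2.17, the 147th lowest), and Pdyn from 67.3 to 37.3 FPKM (-0.85). Tac1 was at 247 and 182 FPKM (-0.43) and Pnoc at 3.08 and 3.05 FPKM (-0.01). The order of the precursors was the same as without treatment, apart from Pnoc, whose ratio came closest to 0. Among the receptors, Oprd1 fell from 5.43 to 2.17 FPKM (-1.30), Oprk1 from 8.17 to 3.25 FPKM (-1.32), Tacr1 from 7.56 to 3.30 FPKM (-1.18) and Tacr3 from 2.23 to 1.47 FPKM (-0.58). Oprl1 was at 22.4 and 26.2 FPKM (0.23) and Oprm1 at 1.53 and 1.46 FPKM (-0.06).

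Set side by side, the genotype ratios of both pairs had the same sign for 9 of the 10 genes, all but Oprm1 (and Pnoc, where the mean of each group's 3 tables is taken, which turns its ratio to 0.02), with Pearson's r of 0.957 over these 10 genes. Over all 16662 genes r was 0.212, and of the 3029 genes past the fold in vehicle mice 55.2% were also past it in the same direction in the RGFP109 pair. Genes of a pair share their libraries and are not independent, so r is given as a description. All 10 genes were above 1 FPKM in every group, whereas the genes compared include those down to the filter of 0.1 FPKM. The values of r are thus not matched for level, and r was not computed over genes of like level. The ratio under RGFP109 was the lower one for 9 of the 10 genes, all but Pnoc. The share of all genes was not counted for this or for the same sign, so neither count sets the 10 genes apart. The difference between the ratios ranged from -0.56 for Oprm1 and -0.38 for Pdyn to 0.32 for Pnoc. Its median size was 0.27 for the 10 genes and 0.10 for all genes. That difference has no test, since neither ratio has a spread.

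**Figure D2:**
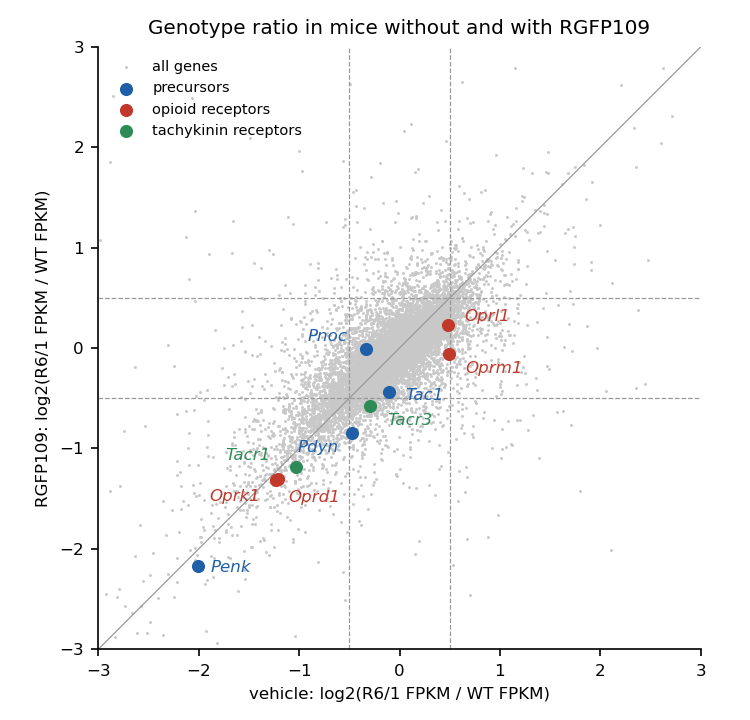
Log2 ratio of R6/1 over WT in vehicle mice (x axis) and in RGFP109 mice (y axis) for all 16662 genes compared in both (grey; 185 lie outside the axes) and the 10 genes (coloured by role); dashed lines mark 0.5 on either side of 0 and the solid line equal ratios. Penk (-2.01 and -2.17) lies farthest from 0, Oprd1, Oprk1 and Tacr1 lie together between -1.04 and -1.32, and 9 of the 10 points lie below the line of equal ratios. The share of all genes below that line was not counted.

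The shares of the precursor transcripts in their summed FPKM differed with genotype. Penk made up 80.3% of the summed FPKM of the 4 precursors in WT-vehicle and 53.3% in R6/1-vehicle, while the sum went from 1388 to 518 FPKM. Tac1 made up 15.4% and 38.4%, with a log2 ratio of -0.11 in its own level. The RGFP109 pair gave 77.9% and 52.6% for Penk and 17.2% and 38.8% for Tac1. Penk stood at 5.20 times the level of Tac1 in WT-vehicle and at 1.39 times in R6/1-vehicle, and at 4.53 and 1.36 times in the RGFP109 pair.

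The summed FPKM of the 4 opioid receptors was 33.4 in WT-vehicle and 34.6 in R6/1-vehicle, while its parts shifted. Oprl1 made up 59.3% of the sum in WT-vehicle and 80.2% in R6/1-vehicle. Oprd1 went from 17.0% to 7.02% and Oprk1 from 20.6% to 8.41%. In the RGFP109 pair the sum was 37.5 FPKM in WT-RGFP109 and 33.1 FPKM in R6/1-RGFP109, and the share of Oprl1 was 59.7% and 79.2%. Tacr1 stood at 3.84 times the level of Tacr3 in WT-vehicle and at 2.28 times in R6/1-vehicle.

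**Figure D3:**
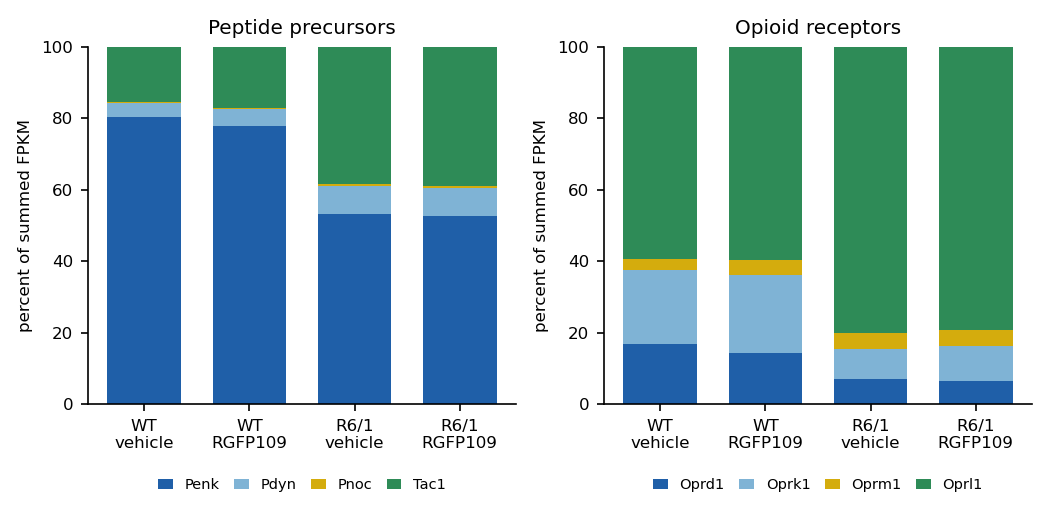
Share of the summed FPKM taken by each of the 4 precursors (left) and each of the 4 opioid receptors (right) in each group, in percent. Penk takes 80.3% and 77.9% in the WT groups but 53.3% and 52.6% in the R6/1 groups, and Oprl1 takes 59.3% and 59.7% in the WT groups but 80.2% and 79.2% in the R6/1 groups.

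The second question was what RGFP109 did within a genotype. In R6/1 mice 0 of the 10 genes passed the fold in either direction, against 5.77% of 16840 genes, and the ratios ran from -0.16 (Penk) to 0.24 (Pnoc) with a median of -0.11. In WT mice 0 of the 10 passed it, against 8.11% of 16957 genes, and the ratios ran from -0.09 (Pnoc) to 0.50 (Oprm1, just inside the fold, and past it at 0.52 with no pseudocount) with a median of 0.18. With shares of this size among all genes, a count of 0 among 10 genes does not set them apart.

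Penk was at 286 FPKM in R6/1-vehicle and 255 FPKM in R6/1-RGFP109 (log2 ratio -0.16), on the scale of that table, and at 1076 and 1074 FPKM in the WT groups (-0.00). Pdyn was at 41.8 and 38.5 FPKM in R6/1 mice (-0.12) and at 54.1 and 64.7 FPKM in WT mice (0.26). Tac1 was at 206 and 188 FPKM in R6/1 mice (-0.13) and at 207 and 237 FPKM in WT mice (0.20). Both direct pathway precursors thus had a ratio below 0 in R6/1 mice and above 0 in WT mice. So did the receptors Oprm1, Oprl1, Tacr1 and Tacr3, and all of these ratios lay inside the fold. Of the 10 genes, Oprd1, Oprk1 and Penk had ratios of the same sign in both genotypes, that of Penk in WT mice being so near 0 that centring on the median gene turned it to 0.0003. The share of all genes with opposite signs was not counted, so these signs do not set the 10 genes apart. They rest on the same 4 group values as the genotype ratios above and are no separate result. Oprm1 was at 1.03 FPKM in WT-vehicle and 1.47 FPKM in WT-RGFP109, and at 1.57 and 1.51 FPKM in the R6/1 groups, so that WT-vehicle was the lowest of the 4 groups.

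**Figure D4:**
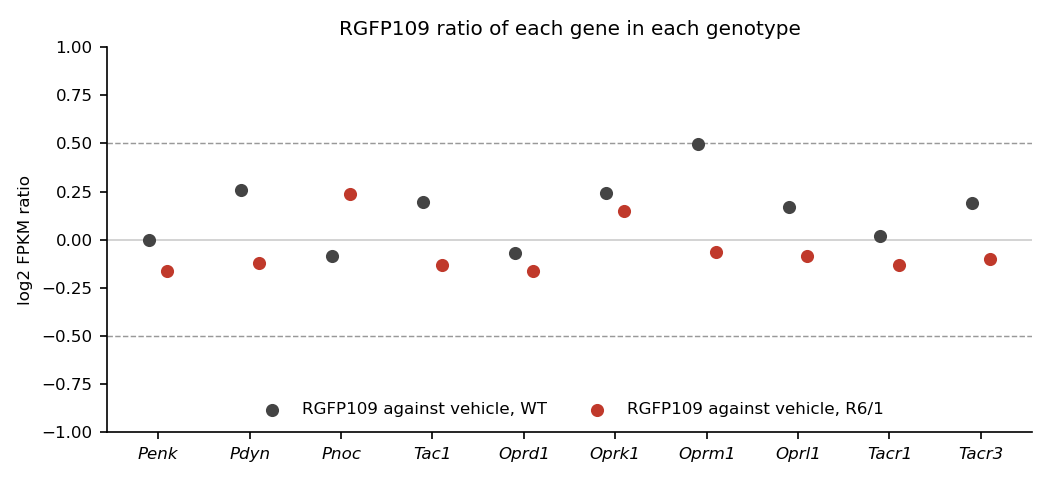
Log2 ratio of RGFP109 over vehicle for the 10 genes in WT mice (dark) and R6/1 mice (red), each from 1 pooled value per group; dashed lines mark the fold of 0.5. All 20 points lie inside the fold, from -0.16 to 0.24 in R6/1 mice and from -0.09 to 0.50 in WT mice.

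The third comparison asked how far treated R6/1 mice stood from untreated WT mice. Of the 10 genes 5 were lower in R6/1-RGFP109 than in WT-vehicle and 0 higher, against 13.8% and 5.42% of 16982 genes. The 5 were Penk (log2 ratio -2.18), Oprd1 (-1.37), Tacr1 (-1.16), Oprk1 (-1.08) and Pdyn (-0.59). This comparison shares its groups with those above and adds no further animals. The genotype ratio of Penk in vehicle mice, -2.01, thus stood beside -2.18 after RGFP109, and that of Oprk1, -1.23, beside -1.08.

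Other genes of the same families were in part also lower. Of 10 further opioid and tachykinin genes, 8 were above 0.1 FPKM, and 3 of these were lower in R6/1-vehicle and 0 higher. By the same measure 13.4% of all genes were lower and 5.84% higher. In the RGFP109 pair 2 of the 8 were lower and 0 higher, beside 11.7% and 5.39% of all genes. These counts have no test. Tac2, the neurokinin B precursor, fell from 18.9 to 8.94 FPKM (log2 ratio -1.08) and was also lower in the RGFP109 pair (-0.65). Npff, the precursor of neuropeptide FF, fell in both pairs (-0.63 and -0.87). Pomc, the precursor of beta-endorphin, fell in vehicle mice (-0.68, from 3.14 to 1.94 FPKM) and had a ratio of 0.24, within the fold, in the RGFP109 pair. Hypothalamic markers were also lower in vehicle mice. Of 6 such genes 4 were lower and 0 higher in R6/1-vehicle, 2 were lower and 2 higher in the RGFP109 pair, none was at 0 in any group, and their summed FPKM was 13.8 in WT-vehicle and 2.62 in R6/1-vehicle, against 13.0 and 13.4 in the RGFP109 pair. Their part in the Pomc values was not tested. Npffr1, Npffr2, Ogfr and Ogfrl1 stayed within the fold in both pairs, and Tac4 and Tacr2 were not above 0.1 FPKM.

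Neuropeptide precursors of other families were lower more widely. Of 14 genes 13 were lower in R6/1-vehicle and 1 higher, with a median log2 ratio of -1.21, and 11 were lower in the RGFP109 pair, with a median of -0.80. Beside these counts, 13.4% of all genes were lower and 5.84% higher in R6/1-vehicle, and 11.7% were lower in the RGFP109 pair. Of the most abundant, Sst (somatostatin) fell from 653 to 361 FPKM (-0.85), Cck (cholecystokinin) from 282 to 99.8 FPKM (-1.50), Npy (neuropeptide Y) from 238 to 110 FPKM (-1.12) and Cartpt from 16.3 to 5.59 FPKM (-1.54). Thus 0 of these 14 genes stayed within the fold in vehicle mice, whereas Pdyn (-0.47, just inside), Pnoc and Tac1 did. In the RGFP109 pair 3 of the 14 stayed within it and Pdyn was lower (-0.85). The contrast has no test in either pair.

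Of 12 genes that cut and package peptide precursors, 1 was lower in each genotype pair (Chgb, a granin, -0.53 and -0.54, named after its values were seen) and 0 were higher, with medians of -0.18 and -0.11. Over all genes 13.4% and 11.7% were lower, so that this count does not set the list apart. Cpe (carboxypeptidase E) was at 1487 and 1163 FPKM (-0.35) in the vehicle pair, Pcsk1n at 289 and 261 FPKM (-0.14), Scg5 at 211 and 285 FPKM (0.43) and Scg2 at 168 and 180 FPKM (0.10).

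Of 10 peptidases 1 was lower and 2 were higher in R6/1-vehicle, with a median log2 ratio of 0.01, against 13.4% lower and 5.84% higher of all genes. Ece2 rose from 17.4 to 31.3 FPKM (0.85) and by 0.79 in the RGFP109 pair. Lnpep (0.62) and Ace (angiotensin-converting enzyme, -1.08) were named after their values were seen. In the RGFP109 pair 1 peptidase was lower (Ace, -0.88) and 1 higher (Ece2), beside 11.7% and 5.39% of all genes. Lnpep stayed within the fold there. Ace also fell with RGFP109 in both genotypes (-1.04 in WT and -0.85 in R6/1 mice). So did all 6 choroid plexus markers, whose summed FPKM was 44.7 in WT-vehicle and 26.2 in R6/1-vehicle, against 16.0 and 10.3 in the RGFP109 pair, with none at 0, and their part in the Ace values was not tested. Npepps (0.10), Thop1 (-0.15) and Dpp3 (-0.07) stayed within the fold.

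Of 15 Gi/o genes, downstream of the opioid receptors, 1 was lower and 0 higher in R6/1-vehicle, with a median of -0.20. Over all genes 13.4% were lower and 5.84% higher, so that this count does not set the list apart. The most abundant, Gnao1 (-0.24), Gnai2 (0.09), Arrb1 (-0.22) and Adrbk1 (-0.12) stayed within the fold. Of 8 Gq genes, downstream of the tachykinin receptors, 3 were lower and 0 higher in R6/1-vehicle, with a median of -0.31, against 13.4% lower of all genes. Itpr1, an intracellular calcium channel abundant in projection neurons, fell from 115 to 64.3 FPKM (-0.83), while Plcb1 (-0.49), Gna11 (0.04) and Gnaq (0.24) stayed within the fold. In the RGFP109 pair 2 of the 8 were lower and 0 higher, with a median of -0.25, against 11.7% lower of all genes. The Gq counts have no test.

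The tissue label was checked against markers of the striatum. Genes of all projection neurons were abundant, with Ppp1r1b (DARPP-32) at 1149 FPKM, Arpp21 at 380 and Gng7 at 342 FPKM in WT-vehicle. Slc17a7, a marker of neocortical excitatory neurons, was also present at 297 FPKM. Of the 9 projection neuron genes 7 were lower in R6/1-vehicle, with a median of -1.10, and their summed FPKM was 2533 in WT-vehicle and 1145 in R6/1-vehicle, against 2381 and 1060 in the RGFP109 pair. By the same measure 13.4% of all genes were lower in R6/1-vehicle. No gene of the lists of striatal neurons was at 0 in any group.

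Markers of the 2 pathways differed beside their peptides. In the vehicle pair 13.4% of all genes were lower and 5.84% higher, and in the RGFP109 pair 11.7% and 5.39%. Of 6 genes of indirect pathway neurons, 4 were lower in R6/1-vehicle, namely Adora2a (-1.97), Gpr6 (-1.51), Gpr52 (-1.29) and Drd2 (-1.25), whereas Sp9 (-0.02) and Ptprm (0.01) stayed within the fold. Their summed FPKM was 331 in WT-vehicle and 122 in R6/1-vehicle, and 301 and 111 in the RGFP109 pair. Of 6 genes of direct pathway neurons, Drd1 fell (-0.99) and Isl1 rose (0.67), while Slc35d3 (-0.40), Ebf1 (0.35), Eya1 (0.27) and Sfxn1 (0.12) stayed within the fold. In the RGFP109 pair 2 of these 6 were lower, Drd1 (-1.21) and Slc35d3 (-0.69), and 0 higher, with Isl1 at 0.41. Their summed FPKM was 107 and 82.0 in the vehicle pair and 115 and 79.1 in the RGFP109 pair. The dopamine receptors thus fell in both pathways and both pairs. Among the precursors Penk passed the fold in both pairs, Pdyn in the RGFP109 pair and Tac1 in neither. Of the 4 striosome markers, which mark a compartment rich in mu receptors, Kremen1 (-0.70), Sema5b (-0.60) and Lypd1 (-0.54) were lower in vehicle mice and Tshz1 was not (0.03). In the RGFP109 pair 2 of the 4 were lower and 0 higher, with ratios from -0.68 to -0.24.

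Most interneuron markers were lower beside Tacr1. Of 10 genes, among them Sst and Npy from the neuropeptide list, 8 were lower in R6/1-vehicle and 9 in the RGFP109 pair, with medians of -0.88 and -1.02, and their summed FPKM was 999 in WT-vehicle and 536 in R6/1-vehicle, against 986 and 531 in the RGFP109 pair. Most of the sum in vehicle mice came from Sst and Npy, so it says little about the other interneuron markers. Pvalb (-0.85) and Calb2 (-0.52) were lower in vehicle mice, whereas 2 of the 10 stayed within the fold, Lhx6 (-0.13) among them. Values of the cholinergic markers on the list are not given singly. The neocortex list, with Slc17a7 (-0.89), Tbr1 (-0.69), Neurod6 (-0.75) and Lamp5 (-0.42), had 5 of 8 genes lower in vehicle mice and 1 of 8 in the RGFP109 pair, and a summed FPKM of 419, 249, 404 and 296 in the same order of groups. The 6 oligodendrocyte genes had 4 lower in vehicle mice and 0 in the RGFP109 pair, with sums of 4674, 2618, 3651 and 2956 FPKM. Beside the counts of these lists, 13.4% of all genes were lower in vehicle mice and 11.7% in the RGFP109 pair. Penk, Oprd1, Oprk1 and Tacr1 were lower in both pairs. What part any of these cell types has in the values of the 10 genes was not tested.

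**Figure D5:**
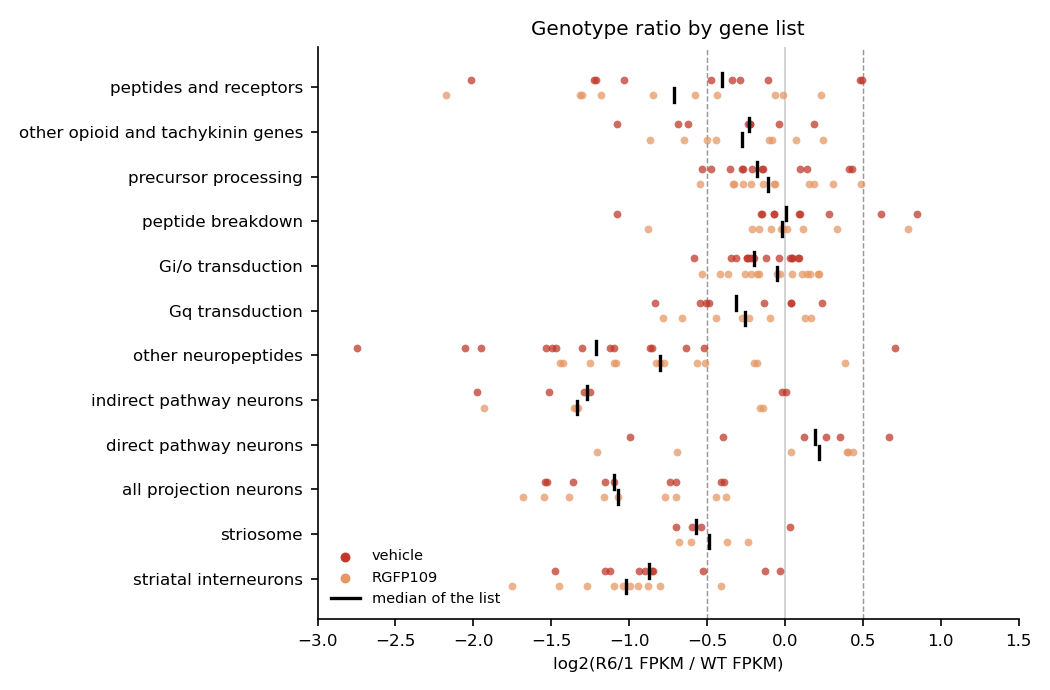
Log2 ratio of R6/1 over WT for each gene of the 10 peptides and receptors (top row) and of 11 lists, in vehicle mice (red) and RGFP109 mice (orange), with the median of each list as a black bar and dashed lines at the fold of 0.5. The medians of the other neuropeptides (-1.21 and -0.80), indirect pathway neurons (-1.27 and -1.33), all projection neurons (-1.10 and -1.07) and striatal interneurons (-0.88 and -1.02) lie beyond the fold in both pairs, whereas those of precursor processing, peptide breakdown and both transduction lists lie inside it.

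To find which genes had the profile most like a precursor's, the Euclidean distance over the log2 ratios of the 5 comparisons was taken for 9884 genes above 5 FPKM in WT-vehicle. These comparisons share groups, so nearness is a description. Nearest to Penk was Adora2a, the adenosine receptor of indirect pathway neurons (distance 0.31), followed by 1700001O22Rik, Cd4, Ddit4l and Kcnh4 (0.34 to 0.41). Nearest to Pdyn were Nefm, a neurofilament gene (0.080), AI414108, Pdp1, Synpr and Lamp5 (also on the neocortex list). Among the nearest to Tac1 were Tiam1 (0.031), Lhx6 (also on the interneuron list), Nacc2 and Shroom2. The neighbours of Penk lay farther from it than those of Pdyn and Tac1 did from theirs.

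Promoters were read from RefSeq (GRCm38.p6), 250 bases before to 50 after each start, which gave 12 windows for 7 of the 10 genes (Pdyn, Tac1, Oprd1, Oprm1, Oprl1, Tacr1 and Tacr3). Some windows of 1 gene overlap. They were searched on both strands for letters of the cAMP response element (TGACGTCA), its shorter form (TGACG), the element known from the PENK enhancer (TGCGTCA, which overlaps the shorter form) and the AP-1 site (TGANTCA), all bound by factors of the CREB and Fos families. Of 32851 promoters, 1.79%, 20.8%, 2.12% and 7.81% held these letters. The shorter form was found in Tac1, Tacr1 and Tacr3, and the PENK element in Tac1 alone, while neither the full element nor the AP-1 letters occurred in the 12 windows. Shown are Pdyn (chr2:129699889-129700188, minus strand), a precursor that was lower in the RGFP109 pair, and Tac1 (chr6:7554811-7555110, plus strand), whose capitals mark the letters found, at -199 and -43 from the start. A match is a description of letters and no evidence of binding.
Pdyn: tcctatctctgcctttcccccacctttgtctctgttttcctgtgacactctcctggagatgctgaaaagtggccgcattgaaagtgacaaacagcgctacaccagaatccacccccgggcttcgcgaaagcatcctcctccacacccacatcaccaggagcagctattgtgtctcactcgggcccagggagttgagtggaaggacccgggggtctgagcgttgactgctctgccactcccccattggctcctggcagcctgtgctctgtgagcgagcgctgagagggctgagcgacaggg
Tac1: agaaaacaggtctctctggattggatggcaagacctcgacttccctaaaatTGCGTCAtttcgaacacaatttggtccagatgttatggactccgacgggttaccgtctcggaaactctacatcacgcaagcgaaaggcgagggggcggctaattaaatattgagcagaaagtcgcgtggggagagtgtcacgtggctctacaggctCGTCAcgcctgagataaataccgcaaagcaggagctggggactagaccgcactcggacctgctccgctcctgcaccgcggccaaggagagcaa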

How the data were processed

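Striatal RNA was sequenced as single-end reads of 51 bp in 24 libraries. The authors aligned them with STAR 2.5.0b to RefSeq transcripts of mm10, computed FPKM with Cufflinks 2.2.1 and deposited 6 Cuffdiff tables, 1 per pair of groups, each with 1 FPKM per gene and group. Their columns of log2 fold change, test statistic, p-value and q-value hold the authors' own comparisons and were not used. Depth is unknown and no value per library was used, so no test, SD or interval is given. The libraries were sequenced in 2 pools of 12, each with libraries of all 4 groups, and the pools could not be compared here.

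Here log2((FPKM + 0.05)/(FPKM + 0.05)) was computed within the table of each pair, for genes above 0.1 FPKM in at least 1 of the 2 groups. Of the 6 pairs 5 were used. Genes beyond 0.5 were counted as lower or higher. Ratios understate the change of low genes. The calculation was tested on simulated data. The genes named are the 10 members, the 5 nearest to each of Penk, Pdyn and Tac1, every gene of the other family, pathway and striosome lists, and up to 4 of the most abundant of each of the other lists. The results of some items under this rule are not reported here. The 10 genes and the 19 lists were chosen with earlier results of these data known. Lists for astrocytes, microglia, endothelium, and habenula and thalamus had 0, 0, 1 and 3 genes lower and 0 higher in R6/1-vehicle. By that measure 13.4% of all genes were lower and 5.84% higher. Sequences came from GENCODE vM21 and RefSeq GRCm38.p6, and table coordinates had 1 added to the start. Alternatives are given at the end. Python 3.11.15, numpy 2.4.6, pandas 2.3.3 and matplotlib 3.10.9 were used.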

Additional observations from a re-analysis of the deposited data

How the results depend on the processing

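The counts of genes past the fold, over the 10 genes and 5 comparisons, kept within 1.5 times their value under every alternative except 3 counts of higher genes that stood at 0. With no pseudocount, 1 gene was higher in R6/1-vehicle than in WT-vehicle (Oprm1, 0.51) and 1 in WT-RGFP109 than in WT-vehicle (Oprm1, 0.52). With each group's mean over its 3 tables, 2 were higher in R6/1-vehicle than in WT-vehicle (Oprm1, 0.52, and Oprl1, 0.52). With a fold of 1, 4 genes were lower in each genotype comparison, so that Pdyn and Tacr3 no longer passed. A pseudocount of 1 FPKM moved 15 of the 50 ratios by more than 0.1, at most by 0.29 for Oprd1. It took Tacr3 in the RGFP109 genotype pair from -0.58 to -0.38, so that 5 genes were lower there in place of 6. The other settings (no filter, a filter of 1 FPKM and centring on the median gene) moved none by that much. Signs changed for 2 ratios near 0, Penk in WT mice with centring (-0.0025 to 0.0003) and Pnoc in the RGFP109 pair with the mean of 3 tables (-0.01 to 0.02). Shares of all genes past the fold fell with a pseudocount of 1 FPKM, from 19.2% to 9.26% in the vehicle genotype pair. With a filter of 1 FPKM those of the RGFP109 comparisons fell from 5.77% to 3.24% in R6/1 mice and from 8.11% to 4.22% in WT mice. No paired analysis was possible because the deposited columns are pooled per group and carry no replicate number, and libraries were not left out in turn, since values per library were not used here.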
